A study of Mus musculus with 16 samples.

Results

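The collagen gene family was examined in hamstring muscle from a mouse model of anti-Jo-1 myositis, an inflammatory muscle disease in which antibodies recognise histidyl-tRNA synthetase (HRS, the Jo-1 antigen). The members were all genes of the deposited mouse table whose symbol is Col, a number, the letter a and a number, which gave 44 of 26382 genes. By the form of their protein, 11 were fibrillar, 6 were basement membrane collagens, 9 were fibril-associated collagens with interrupted triple helices (FACIT) and 18 belonged to other groups. Bulk RNA was measured in 16 libraries from 9 female C57BL/6 mice, 8 to 10 weeks old, taken 14 days after intramuscular injection. No mouse carried a transgene or a deletion according to the labels.

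The sample titles place HRS in the left hamstring and PBS in the right hamstring of mice m862 to m866, which gave 5 HRS legs and 5 contralateral PBS legs. Both legs of mice m867 and m868 received PBS only, so that these 4 libraries come from 2 animals. Mice m860 and m861 received HRS fused to maltose-binding protein (HRS-MBP) and gave 1 library each, with no leg stated. The protein was given at 3 to 5 mg/mL, except that the HRS-MBP titles state 2 to 3 mg/mL. The treatment label of these 2 samples instead names HRS at 3 to 5 mg/mL, so the labels conflict on the protein and the dose of this group, which is called HRS-MBP here after its titles. The protocol text describes injection of both legs, with 100 µL in total, whereas the titles separate the legs of each mouse, and the grouping here follows the titles. The PBS legs of m862 to m866 are therefore legs of mice immunised with HRS, not of untreated mice. The p-values below measure the spread between these libraries.

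Collagens are secreted proteins in which 3 alpha chains wind into a triple helix. Types I and III form the fibrils of the connective tissue around muscle fibres, type V sets fibril diameter, and type IV forms the sheet-like network of the basement membrane that wraps each fibre and each capillary. Type VI builds beaded filaments next to that membrane and FACIT members sit on fibril surfaces, and most of these chains in muscle are made by fibroblasts. Accumulation of fibrillar collagen is the textbook sign of fibrosis, and a transient rise is part of normal muscle repair.

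One library stood apart from its group over all tested genes, collagens among them. The HRS leg of m866 lay at 2.84 on the first principal component of all tested genes, which held 77.3% of the variance, whereas the other 4 HRS legs lay from -123 to -65.4 and the contralateral legs from 37.9 to 76.5. Its summed leukocyte markers, 242.5 normalized counts, were above the 23.6 to 56.3 of the contralateral legs and below the 487.8 to 1099 of the other HRS legs. The group counts and the fold changes of the called collagens are therefore given with and without it. The contralateral leg of m866 also differed from the other contralateral legs, with summed adipocyte markers of 2438 normalized counts (247.8 to 467.1 in the others), Schwann cell markers of 463.2 (111.3 to 189.5) and fibroblast markers of 3149 (1349 to 1984). Markers of muscle fibres were high in all libraries, with 7 genes summing to between 36672 and 174374, so the tissue matched its label. Implied sequencing depth ran from 8600000 reads (right leg of m868) to 73900000 (HRS leg of m863), and 1 read was worth between 0.0108 and 0.121 normalized counts.

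The table gives positions that match the GENCODE M21 annotation of mouse build GRCm38 for all 44 members. *Col1a1* lies at chr11:94936224-94953042 on the plus strand, *Col1a2* at chr6:4504814-4541544 on the plus strand, and *Col3a1* at chr1:45311538-45349706 on the plus strand, 24614 bases from *Col5a2* on the opposite strand. *Col4a1* (minus strand) and *Col4a2* (plus strand) on chromosome 8 start head to head and share 22 bases. *Col4a3* with *Col4a4* on chromosome 1 and *Col4a5* with *Col4a6* on chromosome X have the same head-to-head layout with 71 and 1308 bases between the genes. The shared first bases of the *Col4a1*/*Col4a2* pair are shown because the strand used in counting is not given in the sources used here. They lie at chr8:11312805-11312826 on the plus strand.
Col4a1/Col4a2 shared start: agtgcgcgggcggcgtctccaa

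Promoter windows, the 250 bases before each RefSeq start in GRCm38.p6, were available for 35 of the 44 members (38 windows), and *Col1a1* was not among them. The 3 windows below belong to the most abundant chains with a window and to the network collagen with one of the largest fold changes. Capitals mark the motifs searched on both strands. The letters CCAAT stand for a CCAAT box, and the letters TATAAA for a TATA box. A GC box was searched as GGGCGG, and a match on the opposite strand appears in the printed window as CCGCCC instead. These motifs can share end letters, but no matches overlapped in the windows shown. The *Col1a2* window lies at chr6:4505368-4505617 (plus strand), that of *Col3a1* at chr1:45311288-45311537 (plus strand) and that of *Col8a1* at chr16:57754738-57754987 (minus strand). The RefSeq starts of *Col3a1* and *Col8a1* equal the gene starts of the table, whereas that of *Col1a2* lies 804 bases inside the gene as GENCODE M21 draws it, so its window lies within that longer gene model.
Col1a2: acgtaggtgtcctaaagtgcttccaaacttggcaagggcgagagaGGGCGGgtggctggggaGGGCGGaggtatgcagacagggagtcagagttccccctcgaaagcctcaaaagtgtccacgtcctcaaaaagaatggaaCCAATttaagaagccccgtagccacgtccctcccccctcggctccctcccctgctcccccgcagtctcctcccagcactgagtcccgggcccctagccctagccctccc
Col3a1: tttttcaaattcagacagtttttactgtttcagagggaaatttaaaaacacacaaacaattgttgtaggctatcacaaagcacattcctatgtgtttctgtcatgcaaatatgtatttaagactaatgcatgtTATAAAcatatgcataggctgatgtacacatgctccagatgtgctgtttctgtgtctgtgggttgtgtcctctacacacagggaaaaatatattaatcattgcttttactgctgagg
Col8a1: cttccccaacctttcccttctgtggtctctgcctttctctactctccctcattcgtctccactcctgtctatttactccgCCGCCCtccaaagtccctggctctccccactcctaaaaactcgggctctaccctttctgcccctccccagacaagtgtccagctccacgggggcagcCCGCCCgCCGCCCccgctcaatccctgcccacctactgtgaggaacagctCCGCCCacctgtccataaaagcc
The *Col1a2* window held 1 CCAAT and 2 GGGCGG matches, the *Col3a1* window held 1 TATAAA and no GGGCGG, and the *Col8a1* window held 4 GGGCGG matches, each on the strand opposite to the gene. GGGCGG was present in 57.9% of the collagen windows and in 32.7% of all 32851 windows of that length. Among collagens called higher in HRS legs, described next, 14 of 20 windows held it (70%), and among those tested and not called 5 of 14 did (35.7%). CCAAT was in 34.2% of collagen windows against 33.8% of all windows, and TATAAA in 13.2% against 12.4%. These matches describe letters in the windows and no binding was measured.

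Collagen RNA was higher in HRS legs than in the opposite legs of the same mice for most tested collagens, and the counts by class come without a test between classes. Of the 44 members, 39 passed the filter of a mean of at least 0.5 normalized counts over 16 libraries. A scarce gene can pass this filter only through the groups where it is high, so the filter favours the direction of its change. *Col19a1* passed in this way through its HRS and HRS-MBP libraries, and *Col4a6* and *Col9a1* through their PBS legs. Of the 39, 23 rose and 0 fell, where a call needs an adjusted p under 0.05 and a log2 fold change beyond 1 (limma on log2(normalized count + 0.5), Benjamini-Hochberg over 16414 genes). Over all genes tested, 16.9% were called higher and 6.27% lower in this comparison. By class, 8 of 10 fibrillar collagens, 4 of 8 FACIT collagens and 11 of 15 other collagens rose, whereas 0 of 6 basement membrane collagens were called in either direction. The median log2 fold change was 2.38 for fibrillar, -0.17 for basement membrane, 0.69 for FACIT and 1.89 for other collagens, beside 0.08 for all genes tested. For all 39 collagens it was 1.6. At an unadjusted p under 0.05, 28 of 39 collagens differed, a share near the 65.4% of all genes. Limma-voom on implied reads called 23 higher, beside 19.6% of all genes, and 3 lower (*Col4a6*, *Col9a1* and *Col22a1*), beside 8.35%. Of all calls over the genes tested 73% were higher, against 56.2% after quantile normalization, which moved the median of all genes to -0.16 and gave 24 collagens higher, *Col4a1* and *Col4a2* among them, beside 12.8% of all genes, and 4 lower, a share near the 9.94% of all genes. Counting every adjusted p under 0.05 whatever the size, 26 collagens were higher (35.1% of all genes) and 2 were lower (25.9% of all genes).

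Leaving out the HRS leg of m866 gave 23 higher and 1 lower, with backgrounds of 19.8% and 9.74%, and a median log2 fold change of 1.95. With the mouse as a replicate block, 20 rose and 0 fell, beside 16.5% and 5.75% of all genes, and *Col5a3*, *Col11a1* and *Col15a1* no longer passed. In all libraries, 1 of 39 collagens (*Col26a1*) had every HRS leg above every contralateral leg, where 18.3% of all genes did. Without the HRS leg of m866, 25 of 39 did, beside 33.5% of all genes, and 4 had every HRS leg below every contralateral leg (*Col4a3*, *Col4a6*, *Col9a1* and *Col22a1*), beside 24.5%. In bulk muscle, a change in the number of collagen-producing cells and a change in RNA per cell cannot be told apart.

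**Figure D1:**
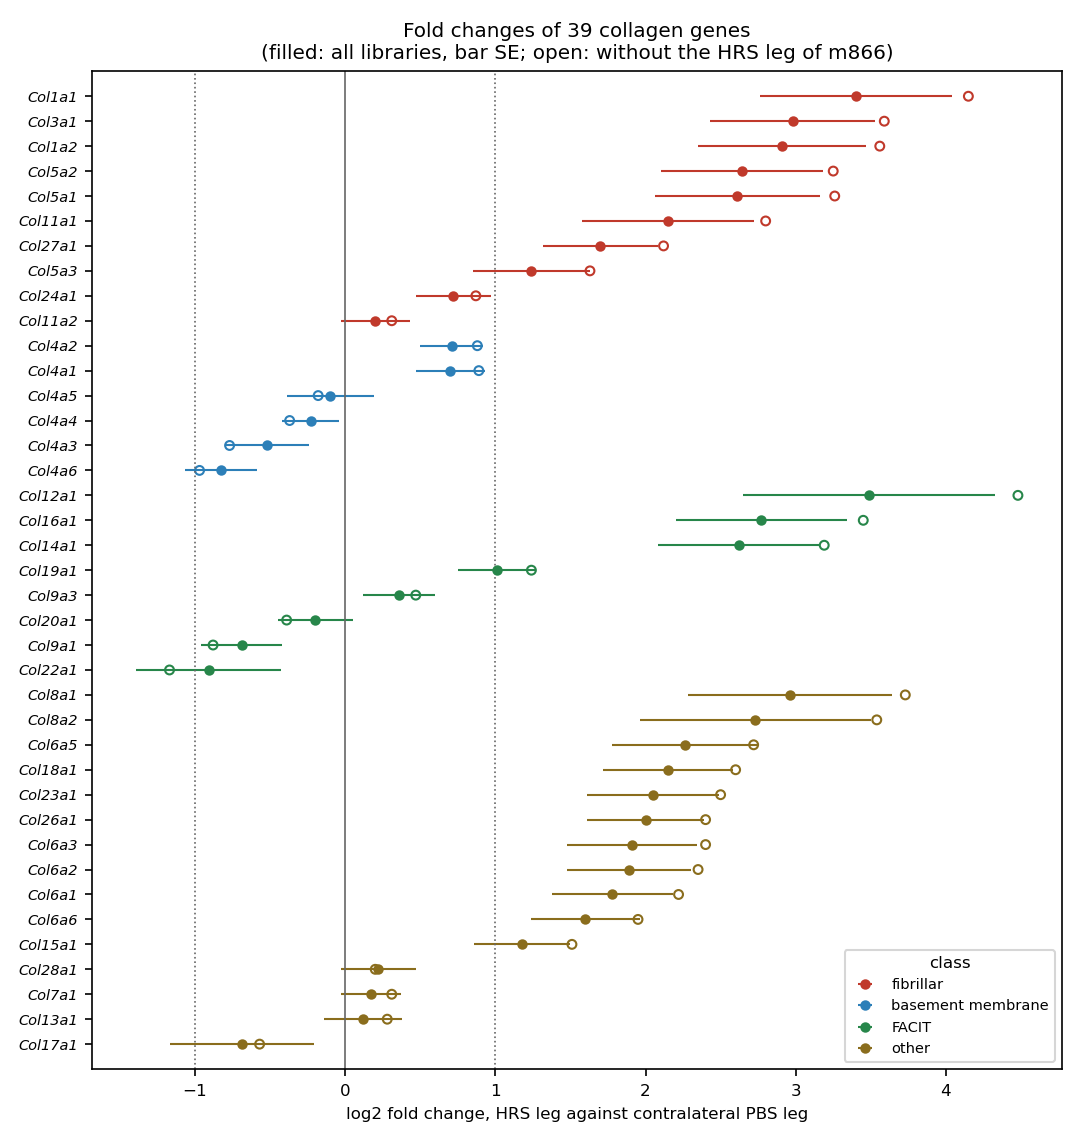
Log2 fold changes of the tested collagens, HRS leg against contralateral PBS leg, on the log2(normalized count + 0.5) scale, grouped by class, with filled points and SE bars for all libraries, open points for the fit without the HRS leg of m866, and dotted lines at the size a call needs. *Col12a1* (3.49), *Col1a1* (3.40), *Col3a1* (2.98), *Col8a1* (2.96) and *Col1a2* (2.91) have the highest values, and the 6 basement membrane chains lie between -0.83 and 0.71.

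Type I and type III collagens, the main fibril formers, carried the largest amounts. *Col1a1*, the alpha 1 chain of type I, was at 4569, 6393, 8587, 8779 and 505.9 normalized counts in the HRS legs of m862 to m866 and at 215.4, 491.2, 434.8, 365.9 and 509.3 in their PBS legs. The PBS-only legs read 182.0 and 409.5 (m867, left and right) and 459.2 and 469.8 (m868), and the HRS-MBP libraries 4513 (m860) and 1608 (m861). Thus 4 HRS legs stood far above every PBS leg, and the leg of m866 lay among the PBS legs. *Col1a1* rose by a log2 fold change of 3.40 ± 0.64 (SE), or 10.5-fold, with a limma adjusted p of 0.000595, and the log2 fold change was 4.15 without the HRS leg of m866.

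*Col1a2*, which supplies the other type I chain, was at 3306, 4705, 6064, 5836 and 519.9 in the HRS legs, 231.0, 545.0, 417.9, 404.5 and 548.9 in the contralateral legs, 200.5 to 473.6 in PBS-only legs, and 2945 and 1139 with HRS-MBP. *Col3a1*, the single chain of type III, an early repair collagen, was at 5334, 7830, 8608, 8689 and 888.7 in the HRS legs, 327.3, 800.4, 695.3, 494.5 and 1018 in the contralateral legs, 332.3 to 720.8 in PBS-only legs, and 4340 and 1928 with HRS-MBP. In both genes the leg of m866 was again within the range of its PBS counterparts and the other 4 were above it. *Col1a2* rose by 2.91 ± 0.56 on the log2 scale (7.54-fold, limma adjusted p = 0.00071) and *Col3a1* by 2.98 ± 0.55 (7.87-fold, limma adjusted p = 0.000511). Without the HRS leg of m866 the log2 fold changes were 3.56 and 3.59.

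**Figure D2:**
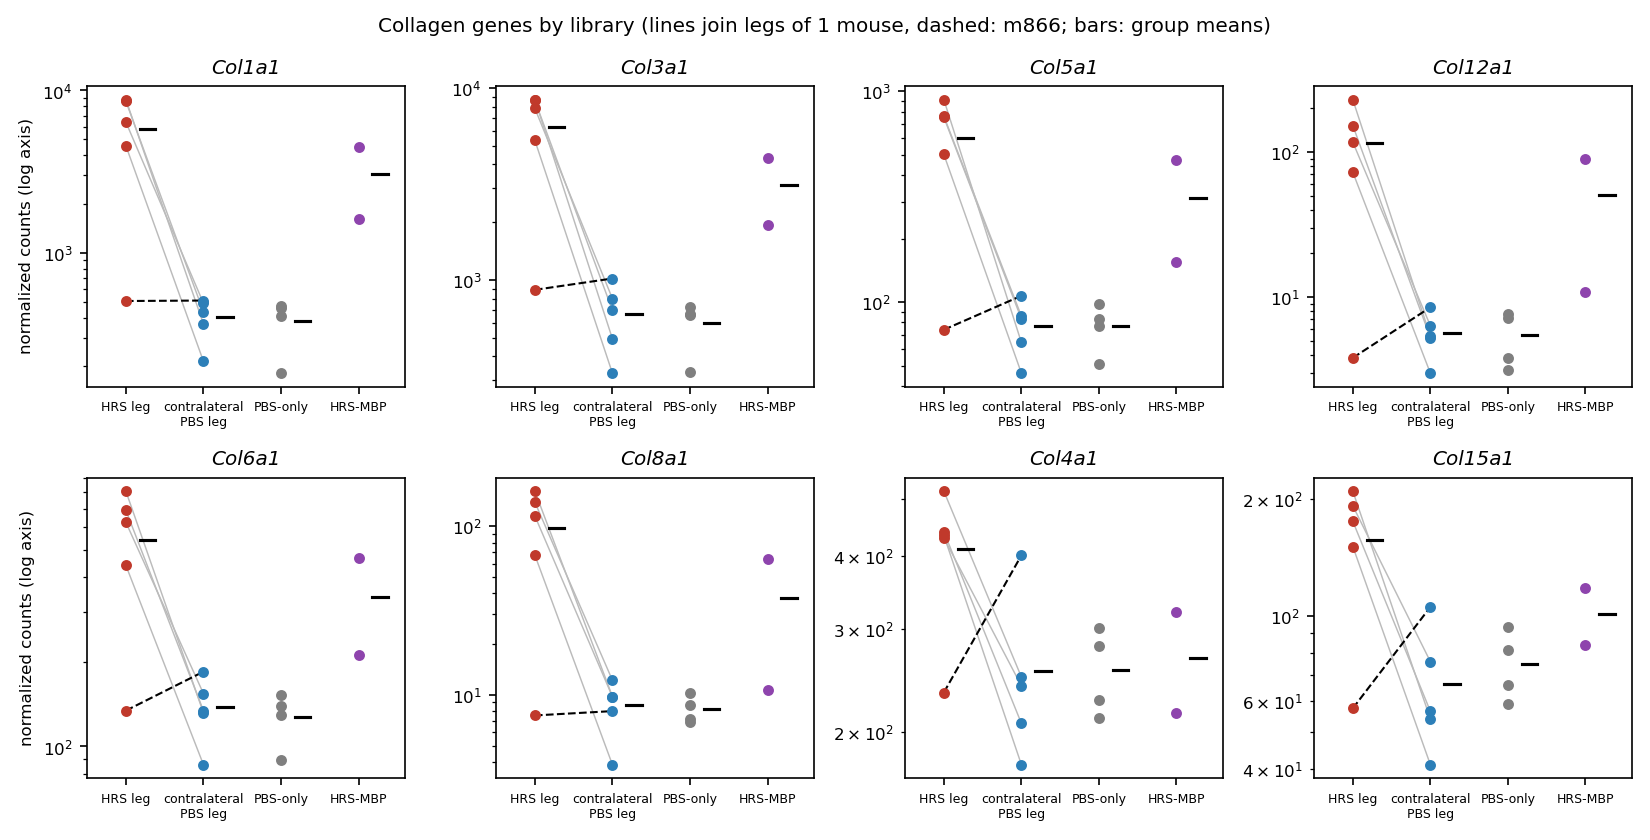
Normalized counts of selected collagens in each of the 16 libraries (log axis), 1 point a library, by group, with lines joining the legs of 1 mouse (dashed for m866) and bars at the group means. The HRS leg of m866 lies among the PBS legs, as for *Col1a1* (505.9 against 182.0 to 509.3), while the other HRS legs are above them.

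Type V nucleates fibrils together with type I. *Col5a1* was at 501.8, 753.4, 761.8, 912.7 and 73.9 in the HRS legs, against 46, 83.3, 85.8, 64.3 and 107.1 in the contralateral legs, and rose 6.09-fold (log2 fold change 2.61 ± 0.55, limma adjusted p = 0.00129). *Col5a2* was at 362.8, 632.3, 607.8, 771.7 and 69 against 35.6, 73.5, 60.3, 47.1 and 102.2, and rose 6.24-fold (log2 fold change 2.64 ± 0.54, limma adjusted p = 0.00101). Both chains moved by nearly the same factor, and without the HRS leg of m866 their log2 fold changes were 3.26 and 3.25. *Col5a3*, the least studied type V chain, was at 192.7, 290.9, 245.1, 306.3 and 65.3 against 61.4, 75.8, 82.7, 70.9 and 137.0, and rose 2.35-fold (log2 fold change 1.24 ± 0.39, limma adjusted p = 0.0123), a call lost with the replicate block (adjusted p = 0.0637). Its log2 fold change was 1.63 without the HRS leg of m866. For *Col5a3* the contralateral leg of m866 was the highest PBS leg and the HRS leg of m866 was near the lowest.

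The minor fibrillar chains were at far lower levels. *Col11a1*, a chain of type XI that is best known from cartilage, was at 5.48, 7.95, 10.5, 14.6 and 0.53 in the HRS legs and 0.449, 0.775, 0.693, 0.618 and 2.61 in the contralateral legs, and rose 4.44-fold (log2 fold change 2.15 ± 0.57, limma adjusted p = 0.00494, or 0.0527 with the replicate block). *Col27a1*, also a cartilage fibrillar collagen, was at 12.6, 17.2, 17, 21.5 and 3.52 against 2.79, 4.32, 2.45, 2.88 and 5.74, and rose 3.25-fold (1.70 ± 0.38 on the log2 scale, limma adjusted p = 0.00171). These chains had log2 fold changes of 2.80 and 2.12 without the HRS leg of m866. *Col24a1* had an adjusted p of 0.0199 (limma) at a log2 fold change of 0.72, under the size required, and *Col11a2* had 0.20 (adjusted p = 0.468). Against PBS-only legs *Col24a1* had a log2 fold change of -0.06 (limma adjusted p = 0.849). The main cartilage collagen, *Col2a1*, did not exceed 0.416 normalized counts in any library and was not tested. Of 5 further cartilage and bone markers in the table, *Acan* rose (log2 fold change 1.77) and *Cytl1* fell by 1.12. *Acan* passed the filter through its HRS legs alone, with a mean of 1.79 against 0.0141 in contralateral and 0.201 in PBS-only legs. The summed list was at 7.51 to 15.8 in HRS legs and 6.14 to 10.9 in contralateral legs, and its part in the *Col11a1* and *Col27a1* values was not tested.

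By limma on log2(normalized count + 0.5), no basement membrane collagen was called with all libraries. *Col4a1*, which with *Col4a2* makes the type IV network found in all basement membranes, was at 433.4, 515.7, 429.2, 439.6 and 233.5 in the HRS legs and 175.8, 248.2, 239.7, 206.8 and 400.6 in the contralateral legs. *Col4a2* was at 312.1, 369.7, 315.3, 320.9 and 180.6 against 132.4, 183.1, 163.0, 168.8 and 271.6. In both genes 4 HRS legs were above every contralateral leg, and in m866 the order was the opposite. Their log2 fold changes were 0.70 ± 0.23 (1.62-fold, limma adjusted p = 0.0178) and 0.71 ± 0.21 (1.63-fold, limma adjusted p = 0.00922), past the p threshold and under the log2 fold change of 1 that a call needs. With the HRS leg of m866 left out they were 0.89 and 0.88, still not called. Leaving out both legs of m866 took them to 1.07 and 1.03, and both were then called higher by limma (adjusted p = 2.2e-05 and 1.53e-05), whereas the replicate block gave adjusted p of 0.107 and 0.0751.

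The remaining type IV chains, known from kidney, lung and eye, were at low levels. *Col4a6* was at 0.47, 0.173, 0.0893, 0.303 and 0.686 in the HRS legs and 0.481, 1.4, 1.25, 0.853 and 0.996 in the contralateral legs, with a log2 fold change of -0.83 ± 0.24 (limma adjusted p = 0.00715), and it was lower in the HRS leg of all 5 mice. At these low values the size depends on the model, since with all libraries *Col4a6* was called lower at a pseudocount smaller than 0.5 (log2 fold change -1.34), with quantile normalization (-1.21) and by limma-voom (-1.91). Against PBS-only legs, which read 0.243 to 0.849, *Col4a6* had a log2 fold change of -0.36 (limma adjusted p = 0.229). The contralateral legs themselves were 0.48 above PBS-only legs on the log2 scale (limma adjusted p = 0.934). *Col4a3* had -0.52 (adjusted p = 0.112), which became -0.77 (adjusted p = 0.00627) without the HRS leg of m866. *Col4a4* had -0.23 (adjusted p = 0.293) and *Col4a5* -0.10 (adjusted p = 0.772). Endothelial markers, a main source of type IV collagen, summed to 371.7 to 435.1 in HRS legs and 353.7 to 431.2 in contralateral legs, and 0 of 8 were called by limma (of which 2 passed the p threshold, 1 in each direction).

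Among FACIT collagens, which decorate fibril surfaces, *Col12a1* had the largest fold change of all collagens. This gene, known from tendon and from the matrix around regenerating muscle, was at 72.5, 152.3, 116.9, 229.8 and 3.8 in the HRS legs, 2.98, 5.24, 6.33, 5.35 and 8.48 in the contralateral legs, and 3.13 to 7.64 in PBS-only legs. It rose 11.3-fold (log2 fold change 3.49 ± 0.84, limma adjusted p = 0.00283), and the log2 fold change was 4.48 without the HRS leg of m866. The HRS leg of m866 was below its own PBS leg. Of 5 tendon markers tested, *Thbs4* (log2 fold change 2.35) and *Tnmd* (1.93) rose, and the list summed to 306.2, 548.4, 390.3, 609.1 and 93.5 in the HRS legs against 44.8 to 107.9 in the contralateral legs. Whether tendon tissue in the dissected samples bears on *Col12a1*, *Col14a1* and type I values was not tested.

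*Col14a1*, which also binds fibrils through decorin, was at 162.5, 277.8, 269.1, 208.2 and 30.6 in the HRS legs and 9.84, 42.7, 30.1, 22.9 and 28.2 in the contralateral legs, and rose 6.13-fold (log2 fold change 2.62 ± 0.54, limma adjusted p = 0.00116). *Col16a1*, a FACIT collagen of fibroblasts and smooth muscle, was at 78.8, 120.4, 130.4, 157.1 and 10.7 against 6.95, 12.8, 10.6, 8.62 and 14.7, and rose 6.8-fold (2.77 ± 0.57, limma adjusted p = 0.00114). Both had 4 HRS legs clear of every PBS leg, and without the HRS leg of m866 their log2 fold changes were 3.19 and 3.45. *Col19a1* was at 1.29, 1.41, 0.965, 2.17 and 0.374 against 0.0641, 0.56, 0.462, 0.265 and 0.296, and its log2 fold change of 1.01 ± 0.26 (limma adjusted p = 0.00439) fell under 1 in 8 of the alternative settings and was 1.24 without the HRS leg of m866. Its mean was 1.24 normalized counts in HRS legs and 0.769 with HRS-MBP, against 0.329 in contralateral and 0.227 in PBS-only legs. Only the 2 higher groups therefore carried it past the filter of 0.5.

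*Col22a1*, a FACIT collagen of the muscle-tendon junction, was called lower under some settings only. It was at 3.44, 3.47, 1.57, 2.44 and 7.14 in the HRS legs and 5.99, 9.05, 3.65, 6.85 and 8.48 in the contralateral legs, lower in the HRS leg of all 5 mice. The groups overlapped, its log2 fold change was -0.91 ± 0.48 (limma adjusted p = 0.109), and it was called lower without the HRS leg of m866 (log2 fold change -1.17, adjusted p = 0.0375) but not with both legs of m866 left out (-1.08, adjusted p = 0.0681). With all libraries limma-voom (-1.18, adjusted p = 0.0213) and quantile normalization (-1.31, adjusted p = 0.0264) called it lower too. The adjusted p with the replicate block was 0.0167 at the same -0.91, so it remained short of the size required. PBS-only legs ranged from 2.48 to 20.5. *Col9a1* had -0.69 (limma adjusted p = 0.0385, or 0.0575 with the block), *Col9a3* 0.36 (0.208) and *Col20a1* -0.20, none called in this fit. *Col9a1* was called lower with all libraries at a pseudocount smaller than 0.5 (log2 fold change -1.25), with quantile normalization (-1.01) and by limma-voom (-2.0).

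Type VI collagen, whose loss causes congenital muscle disease, rose in 5 of 5 tested chains. *Col6a1* was at 440.1, 626.1, 691.1, 807.5 and 134.1 in the HRS legs and 86.2, 154.2, 134.0, 131.8 and 184.4 in the contralateral legs, and rose 3.42-fold (log2 fold change 1.78 ± 0.40, limma adjusted p = 0.00187). *Col6a2* (476.0, 638.0, 687.2, 803.8 and 130.3 against 82.8, 141.5, 126.0, 111.5 and 187.6) rose 3.7-fold, and *Col6a3* (469.3, 633.7, 570.1, 827.4 and 110.6 against 77.2, 130.4, 111.8, 110.7 and 164.7) rose 3.75-fold. The fold changes of these 3 main chains were close to each other. Limma adjusted p was 0.00146 for *Col6a2* and 0.00181 for *Col6a3*. The 3 chains had log2 fold changes of 2.22, 2.35 and 2.40 without the HRS leg of m866.

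The alternative type VI chains were scarcer. *Col6a5* was at 6.16, 5.18, 8.48, 6.64 and 0.935 in the HRS legs and 0.0961, 0.725, 0.416, 0.441 and 1.67 in the contralateral legs (log2 fold change 2.26 ± 0.48, limma adjusted p = 0.00129). *Col6a6* was at 29.9, 35.6, 23.6, 23.7 and 8.01 against 4.58, 13.4, 7.99, 5.79 and 5.14 (log2 fold change 1.6 ± 0.36, limma adjusted p = 0.0019), and was higher in the HRS leg of all 5 mice, m866 included. The log2 fold changes were 2.72 and 1.95 when that leg was left out. *Col6a4* did not reach the filter, with 0.779, 1.21, 2.36, 1.17 and 0.218 against 0.032, 0.115, 0, 0.147 and 0.162.

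The short-chain network collagen of vessel walls and wounds, *Col8a1*, was at 67.4, 138.9, 115.1, 161.4 and 7.54 in the HRS legs and 3.85, 12.2, 9.75, 9.76 and 8 in the contralateral legs, and rose 7.8-fold (log2 fold change 2.96 ± 0.68, limma adjusted p = 0.00202). Its partner chain *Col8a2* was at 11, 40.9, 16.9, 20.7 and 0.717 against 0.705, 1.1, 2.22, 1 and 1.62, and rose 6.63-fold (2.73 ± 0.77, limma adjusted p = 0.00699). In both, the leg of m866 was within the range of the PBS legs and the other 4 were above it, and without that leg the log2 fold changes were 3.73 and 3.54. *Col10a1*, the network collagen of growth plate cartilage, was listed at 0 in all contralateral legs and at 0.147, 0.507, 0.196, 0.872 and 0 in HRS legs, which was too low to test.

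The multiplexins *Col15a1* and *Col18a1* are found in the outer zone of basement membranes and are cleaved to restin and endostatin, and both were called higher with all libraries. *Col18a1* was at 96.4, 163.2, 139.2, 167.0 and 29.4 in the HRS legs and 13.3, 24.1, 19.1, 18.7 and 49.1 in the contralateral legs, and rose 4.45-fold (log2 fold change 2.15 ± 0.43, limma adjusted p = 0.000866). *Col15a1* was at 151.0, 192.5, 210.1, 175.5 and 57.5 against 41.1, 76, 54, 56.5 and 105.3, and rose 2.27-fold (1.18 ± 0.32, limma adjusted p = 0.00513, or 0.0542 with the replicate block). Each had its highest PBS value in the contralateral leg of m866, and without the HRS leg of that mouse the log2 fold changes were 2.60 and 1.51.

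Of the transmembrane and remaining collagens, *Col23a1* was at 17.5, 18.1, 17.7, 21.5 and 3.61 in the HRS legs and 1.15, 3.2, 3.74, 2.74 and 4.82 in the contralateral legs, a 4.15-fold rise (log2 fold change 2.05 ± 0.44, limma adjusted p = 0.00137). *Col26a1* was at 6.98, 6.15, 3.86, 9.17 and 1.18 against 0.192, 1.15, 0.785, 1 and 1.05 (log2 fold change 2.0 ± 0.39, limma adjusted p = 0.000834). It was named after its values were seen, as the single collagen without overlap, and the margin in m866 (1.18 against 1.15) was a fraction of the spread. For *Col23a1* and *Col26a1* the log2 fold changes were 2.50 and 2.40 without the HRS leg of m866. *Col7a1* (log2 fold change 0.17), *Col13a1* (0.12), *Col28a1* (0.22) and *Col17a1* (-0.69) were not called by limma, although quantile normalization called *Col17a1* lower (-1.11, adjusted p = 0.0496). *Col17a1*, a hemidesmosome collagen of skin, reached 7.34 in the contralateral leg of m864 against at most 1.43 in the other contralateral legs, and skin epithelium markers summed to 130.7 in that library against 8.53 to 19.8 elsewhere. *Col9a2* and *Col25a1* were also under the filter, at no more than 1.18 and 1.66 in any library.

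The leg pairs showed that the pattern was shared by 4 mice and absent from the fifth. The HRS leg was higher for 32, 30, 31 and 31 of the 39 tested collagens in m862 to m865, with median log2 differences of 2.0, 1.87, 1.76 and 2.10. In m866 it was higher for 9 of 39, with a median of -0.44. Matching counts over all tested genes were not taken, for these numbers or for the counts of mice below. For *Col1a1* the within-mouse log2 differences were 4.40, 3.70, 4.30, 4.58 and -0.01, for *Col4a1* they were 1.30, 1.05, 0.84, 1.09 and -0.78, and for *Col12a1* they were 4.39, 4.73, 4.10, 5.30 and -1.06. The HRS leg was higher in all 5 mice for 4 collagens (*Col6a6*, *Col14a1*, *Col19a1* and *Col26a1*), in 4 mice for 25, and in none for 3 (*Col4a6*, *Col9a1* and *Col22a1*). In m866 the macrophage marker *Adgre1* and the leukocyte gene *Ptprc* were nevertheless higher in the HRS leg, with 58 normalized counts of *Ptprc* there.

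**Figure D3:**
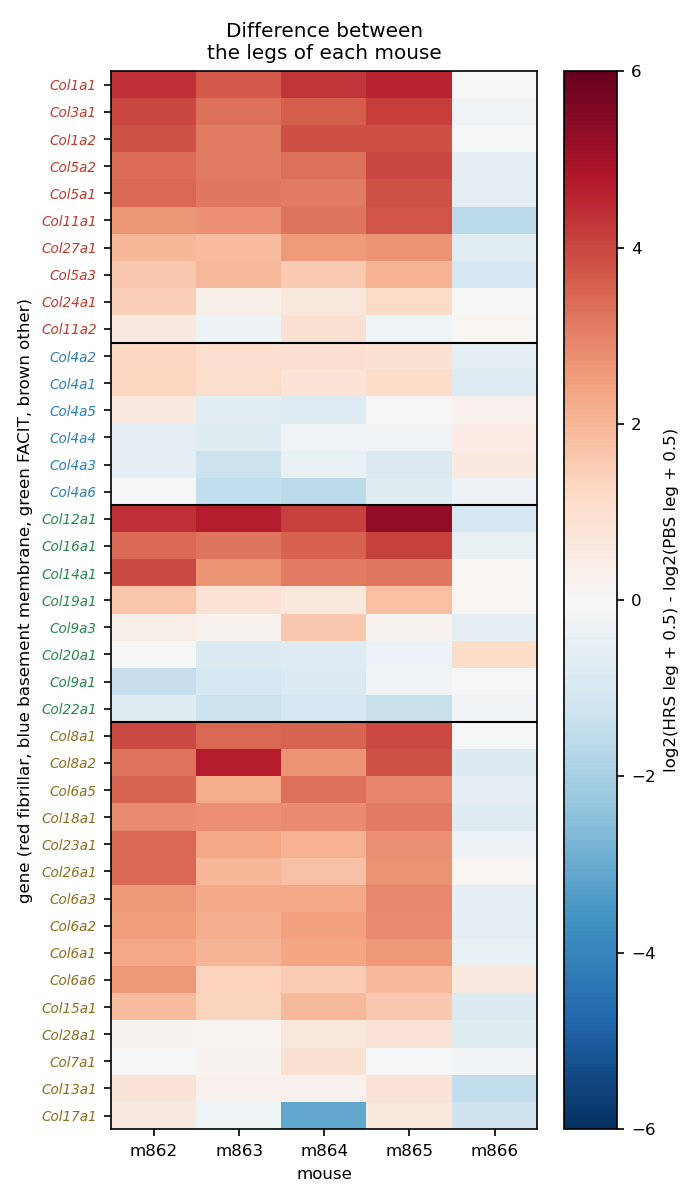
Heat map of the log2 difference between the HRS leg and the PBS leg of the same mouse for each tested collagen, on the log2(normalized count + 0.5) scale, by mouse and class. Medians over 39 collagens are 2.0, 1.87, 1.76 and 2.10 in m862 to m865 and -0.44 in m866.

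The make-up of collagen RNA was then described per length. Per kilobase of the longest coding transcript, *Col3a1* was the most abundant collagen in all 4 groups, with a mean of 1127 ± 593.3 normalized counts per kb (SD, n = 5) in HRS legs and 119.9 ± 48.2 (SD, n = 5) in contralateral legs. *Col1a1* followed in HRS legs (972.4 ± 575.1), ahead of *Col1a2* (764.1 ± 425.2) and *Col6a1* (131.7 ± 64.1). In contralateral legs *Col1a2* (80.3 ± 24.3), *Col1a1* (68 ± 20.1) and *Col4a1* (38.4 ± 13.1) came next. In both groups the means of neighbours among *Col3a1*, *Col1a1* and *Col1a2* differed by less than the larger SD of each pair, an SD that reflects how far whole libraries differ in level. Within libraries the order repeated, since *Col3a1* was above both type I chains per kb in all 16, and *Col1a2* was above *Col1a1* in all 9 PBS legs. Among HRS legs *Col1a2* led in that of m866 alone, and it led in neither HRS-MBP library. *Col4a1* moved from rank 4 in contralateral legs to rank 8 in HRS legs.

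Fibrillar collagens made up 83.5%, 84%, 86.7%, 85.2% and 68.9% of the collagen signal per kb in the HRS legs of m862 to m866. The shares were 58.3%, 65.9%, 65.4%, 62.2% and 62.6% in the contralateral legs, 53.2%, 60.7%, 62.8% and 66% in PBS-only legs, and 83% and 79.1% with HRS-MBP. All HRS legs, that of m866 included, were above all PBS legs on this measure. Basement membrane collagens took 3.85%, 3.18%, 2.28%, 2.27% and 12% in the HRS legs and 12.3% to 17.5% in the contralateral legs. As a share of all normalized counts, the 44 collagens accounted for 1.97%, 3.08%, 3.95%, 3.76% and 0.269% in the HRS legs and 0.129% to 0.409% in the contralateral legs.

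**Figure D4:**
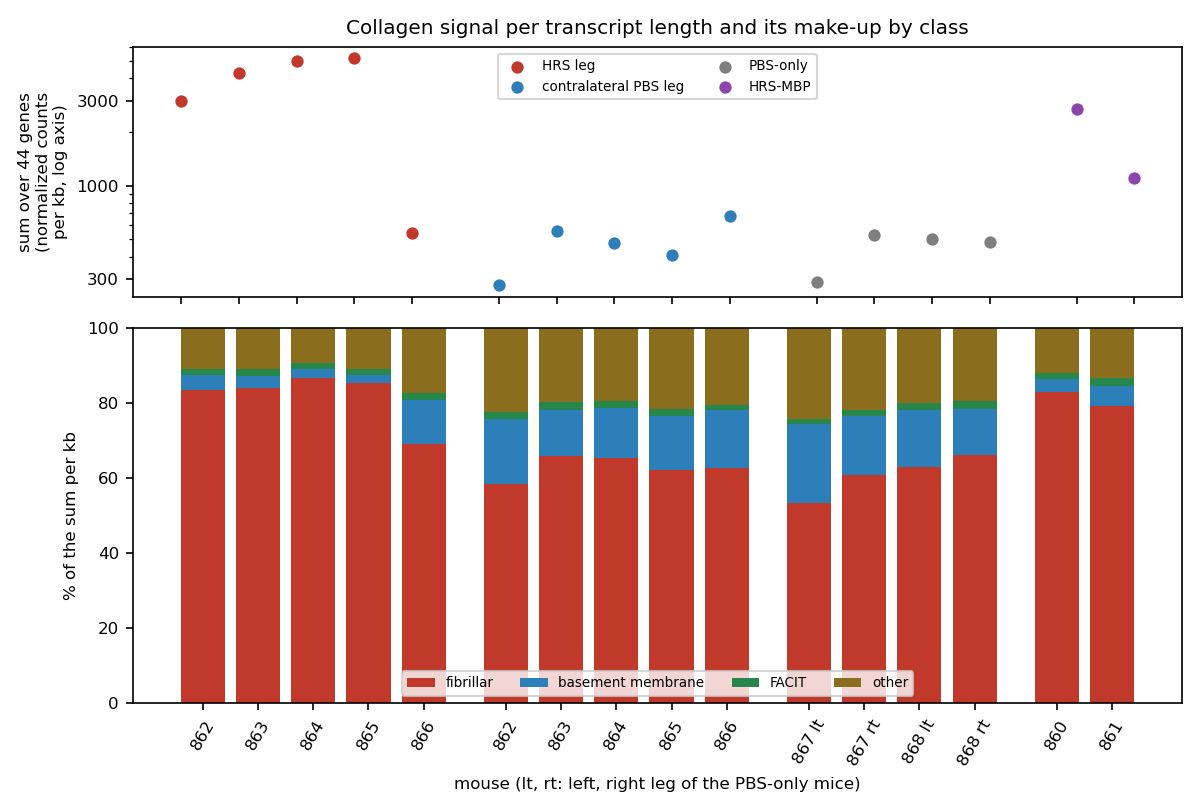
Upper panel, summed collagen signal per kb of transcript in each library (normalized counts per kb, log axis). Lower panel, percent of that sum from fibrillar, basement membrane, FACIT and other collagens. Fibrillar shares are 68.9% to 86.7% in HRS legs and 53.2% to 66% in the 9 PBS legs.

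Ratios between chains do not depend on the scaling of a library. The *Col1a1*/*Col1a2* ratio was 1.38, 1.36, 1.42, 1.5 and 0.973 in the HRS legs and 0.932, 0.901, 1.04, 0.905 and 0.928 in the contralateral legs, a log2 difference of 0.48 (exact permutation test, two-sided p = 0.0159, Benjamini-Hochberg adjusted over 8 ratios p = 0.0317). The PBS-only legs read 0.908 to 1.02 and the HRS-MBP libraries 1.53 and 1.41. These ratios of normalized counts are not adjusted for transcript length. The 4 HRS legs of m862 to m865 lay above every PBS leg and that of m866 lay among them, and without the latter the log2 difference was 0.59 (exact permutation test, adjusted p = 0.0254). *Col1a1*/*Col4a1* differed by 2.7 and *Col3a1*/*Col4a1* by 2.28 on the log2 scale, and *Col6a1*/*Col1a1* by -1.62 (each exact permutation p = 0.00794, adjusted p = 0.0212). In these 3 ratios every HRS leg lay beyond every contralateral leg, including m866, where *Col1a1*/*Col4a1* was 2.16 against 1.22 to 1.98. The 3 differences were 3.26, 2.7 and -1.93 without that mouse's HRS leg.

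The remaining 4 ratios did not pass the threshold with all libraries. *Col4a1*/*Col4a2* was 1.29 to 1.39 in HRS legs and 1.22 to 1.47 in contralateral legs (log2 difference -0.01, exact permutation p = 0.913), and *Col5a1*/*Col5a2* differed by -0.04 (exact permutation p = 0.738). *Col6a1*/*Col6a2* differed by -0.11 and *Col3a1*/*Col1a1* by -0.42, both with an adjusted p of 0.0635 (exact permutation test), and the latter by -0.56 (adjusted p = 0.0254) without the HRS leg of m866. Pairing the legs by sign flips cannot give p below 0.0625 with 5 mice, so the paired form of these tests cannot pass the threshold. Against PBS-only legs the 8 ratios had adjusted p from 0.0635 to 0.381 with all libraries. Without the HRS leg of m866 5 of the 8 passed there, each with an adjusted p of 0.0457 (exact permutation test), with log2 differences of 0.54 for *Col1a1*/*Col1a2*, -0.55 for *Col3a1*/*Col1a1*, 3.42 for *Col1a1*/*Col4a1*, 2.87 for *Col3a1*/*Col4a1* and -1.95 for *Col6a1*/*Col1a1*. Each of the 5 had an unadjusted p of 0.0286, the smallest that 4 against 4 libraries can give. These tests treat the 4 PBS-only legs as separate, although they come from 2 mice, so the p-values do not measure the spread between animals.

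Against PBS-only mice, which share no animal with the HRS legs, the HRS legs gave a similar set of values. They rose for 22 of 39 collagens and fell for 0, where 18.9% of all genes were called higher and 5.87% lower, and the median log2 fold change was 1.33 beside 0.15 for all genes. At an unadjusted p under 0.05, 29 of 39 collagens differed, beside 65% of all genes, and limma-voom called 21 higher and 3 lower (*Col4a3*, *Col4a4* and *Col9a1*), beside 20.3% and 7.84%. *Col1a1* had a log2 fold change of 3.51, *Col3a1* 3.10, *Col12a1* 3.57 and *Col6a1* 1.87. *Col15a1*, at 0.96, was not called here, but it was at 1.29 without the HRS leg of m866. The other 4 were then at 4.26, 3.71, 4.56 and 2.32. Every HRS leg, m866 included, was above every PBS-only leg for 3 collagens (*Col1a1*, *Col1a2* and *Col3a1*), beside 26.6% of all genes, and below every one for *Col4a4*, beside 5.18%. This comparison shares its HRS libraries with the preceding one. Without the HRS leg of m866, 23 rose and 1 fell (*Col9a1*), beside 21.8% and 9.28% of all genes.

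The contralateral PBS legs of HRS mice and the legs of PBS-only mice were compared to ask whether the PBS-injected side differed from muscle of mice that never received HRS. No collagen was called by limma, 0 of 39 in either direction, where 0% of all genes were called higher and 0.00609% lower, and limma-voom also called 0. At an unadjusted p under 0.05 there were 2 collagens, a share near the 5.5% of all genes, namely *Col24a1* (log2 fold change -0.78, 95% interval -1.34 to -0.23) and *Col4a4* (-0.56, -0.98 to -0.14). The 95% interval of the log2 fold change was -1.32 to 1.55 for *Col1a1*, -1.11 to 1.36 for *Col3a1* and -0.57 to 0.48 for *Col4a1*. The intervals leave room for differences of these sizes in either direction, and the lowest PBS-only values of types I and III all came from the left leg of m867, whose *Col1a1* was 182.0.

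The 2 HRS-MBP mice gave unequal values. Against PBS-only legs, 10 of 39 collagens were called higher, a share near the 20.7% of all genes, and 2 were called lower, beside 10.2%. The median log2 fold change was 0.94 beside 0.11 for all genes. The higher calls were *Col1a1* (log2 fold change 2.92, limma adjusted p = 0.0108), *Col1a2* (2.32), *Col3a1* (2.34), *Col5a1*, *Col5a2*, *Col27a1*, *Col14a1* (2.52, limma adjusted p = 0.00993), *Col6a1*, *Col6a2* and *Col6a5*. The lower calls were *Col4a5* (-1.08, adjusted p = 0.0315) and *Col20a1* (-1.21, adjusted p = 0.00869). *Col12a1* was at 89.7 in m860 and 10.9 in m861 and *Col8a1* at 63.9 and 10.7, and neither was called (*Col12a1* adjusted p = 0.0731). The fit counts the 2 legs of each PBS-only mouse separately, and with these legs averaged per mouse only 2 higher calls remained. Without m860 the count of higher calls was 0, and without the left leg of m867 it was 4, so that these calls rest on single libraries.

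HRS-MBP and HRS legs were compared although the labels conflict on what the HRS-MBP mice received. By limma 0 of 39 collagens were called, beside 0.396% of all genes higher and 0.067% lower, limma-voom also called 0 (beside 0.621% and 0.0609%), and 2 had an unadjusted p under 0.05, beside 14.4% of all genes. *Col5a3* was at 131.5 and 43.9 with HRS-MBP and had a log2 fold change of -1.35 (95% interval -2.43 to -0.26), and *Col7a1* was at 11.8 and 9.23 with -0.91 (-1.46 to -0.35). For *Col1a1* the log2 fold change was -0.59 (95% interval -2.39 to 1.20), and -1.35 ± 0.46 (SE, limma adjusted p = 0.147) without the HRS leg of m866. Both HRS-MBP libraries lay below every HRS leg for 3 of 39 collagens, beside 8.4% of all genes, and without the HRS leg of m866 for 25 of 39, beside 15%. Without the HRS leg of m866, *Col16a1* (-1.81), *Col5a3* (-1.74) and *Col7a1* (-1.05) were called lower, beside 0.487% of all genes, and 0 higher, beside 0.609%.

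The machinery that makes and processes collagen was then examined in lists of named genes, whose counts in HRS against contralateral legs stand beside the 16.9% of all tested genes called higher and the 6.27% called lower. Of 20 genes for modification and folding, 10 rose and 0 fell (11 and 0 without the HRS leg of m866). *P4ha3*, a prolyl 4-hydroxylase subunit, was at 8, 15.8, 19.9, 23.4 and 0.343 in the HRS legs and 0.128 to 0.673 in the contralateral legs (10.2-fold, limma adjusted p = 0.00177). The common prolyl hydroxylase subunits were not called, with a log2 fold change of 0.20 for both *P4ha1* and *P4ha2*. *Serpinh1*, the collagen chaperone HSP47, was at 378.1, 586.0, 582.6, 559.7 and 140.6 against 102.4 to 192.4 (3.16-fold, limma adjusted p = 0.00125), and *Fkbp10* (5.67-fold), *Ppib*, *Crtap*, *P3h1*, *P3h3*, *P3h4* and the telopeptide lysyl hydroxylase *Plod2* (2.58-fold) also rose. Omitting the HRS leg of m866 took the log2 fold changes of *P4ha3* and *Serpinh1* from 3.36 and 1.66 to 4.21 and 2.04.

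Of 7 tested genes for removal of the propeptides, 5 rose and 0 fell, with the same counts without the HRS leg of m866. *Bmp1*, which cleaves the C-propeptide, was at 112.0, 175.2, 165.3, 165.6 and 43 in the HRS legs and 24.2 to 46.2 in the contralateral legs (3.49-fold), and *Adamts14*, which cleaves the N-propeptide, rose 5.09-fold (limma adjusted p = 0.000376). *Adamts2*, *Pcolce* and *Tll1* rose as well. Among TGF-beta ligands and targets, 4 of 7 rose, among them *Tgfb1* (54.3, 69.9, 98.4, 74.5 and 23.5 against 8.4 to 15.9; 4.72-fold), *Postn* (14.9-fold) and *Cthrc1* (17.3-fold), while *Tgfb2* had a log2 fold change of -0.24 and *Ccn2* 0.52. *Tgfb1* was above every contralateral leg in all 5 HRS legs, unlike *Postn* and *Cthrc1*, which were at 40.9 and 0.467 in the HRS leg of m866. Without that leg 4 of 7 again rose, and the log2 fold changes of *Postn* and *Cthrc1* went from 3.90 and 4.11 to 4.94 and 5.14.

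Matrix partners of fibrils rose in 5 of 8, led by *Tnc* (tenascin C), which was at 255.3, 431.2, 270.8, 657.5 and 4.42 in HRS legs and 2.05 to 11.8 in contralateral legs (28-fold, limma adjusted p = 0.00231), and whose log2 fold change went from 4.81 to 6.06 without the HRS leg of m866. *Dcn* (decorin), the proteoglycan of resting connective tissue, had a log2 fold change of 0.67 and was not called. Basement membrane partners rose in 3 of 10 (*Lama4*, *Lamb1* and *Nid2*, 2.04- to 2.43-fold), and *Hspg2* (perlecan) had 0.66. Collagen receptors rose in 2 of 9, a share near that of all genes, namely *Lair1*, an inhibitory receptor of leukocytes (14-fold), and *Mrc2*, an uptake receptor of fibroblasts (3.19-fold), whereas the adhesion receptors *Itga1*, *Itga2*, *Itga11*, *Ddr1* and *Ddr2* had log2 fold changes from 0.15 to 0.93. At an adjusted p under 0.05 (limma) whatever the size, 7 of 9 receptors were higher, beside 35.1% of all genes. So were 7 of 8 fibril partners and 7 of 10 basement membrane partners, and 1 basement membrane partner was lower, beside 25.9% of all genes. With the HRS leg of m866 left out, the counts were 5 of 8 fibril partners, 5 of 10 basement membrane partners (with *Agrn* and *Nid1*) and 4 of 9 receptors (with *Ddr2* and *Itga11*), beside 19.8% of all genes. No gene of these 6 lists was called lower by limma, with or without that leg.

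Cell type markers moved with the collagens in part. Against contralateral legs their calls stood beside 16.9% of all genes higher and 6.27% lower, or 19.8% and 9.74% without the HRS leg of m866. Against PBS-only mice these shares were 18.9% and 5.87%, or 21.8% and 9.28% without that leg. All 5 leukocyte markers rose, with sums of 487.8, 573.5, 1099, 538.1 and 242.5 in HRS legs against 23.6 to 56.3 in contralateral legs, and macrophage markers summed to 953.3 to 4833 against 95.2 to 261.2. Of 8 fibroblast markers, 6 were higher at an adjusted p under 0.05 (limma, median log2 fold change of the list 0.88), beside 35.1% of all genes, and 1 was lower, beside 25.9%. Of the 6, 2 (*Mfap5* and *Ly6a*) reached the size of a call. Without the HRS leg of m866, 5 were called higher (also *Cd34*, *Dpt* and *Pdgfra*) and *Gsn* lower, whereas with both legs of m866 left out 5 were higher and 0 lower. Against PBS-only mice 3 of 8 were called higher with all libraries, 7 of 8 without the HRS leg of m866, and 0 lower in either. The fibroblast sums, 1540 to 2131 in HRS legs and 1349 to 3149 in contralateral legs, overlapped, and *Gsn* made up the largest part of them, with a mean of 739.1 against 1429 (log2 fold change -0.89). Of 4 adipocyte markers, 3 were called lower (*Adipoq*, *Cidec* and *Plin1*; median of the list -1.83), and the same number were called lower with both legs of m866 left out. Against PBS-only mice 0 of 4 adipocyte markers were called lower with all libraries and 3 without the HRS leg of m866. Muscle fibre markers summed to 36672 to 90171 in the HRS legs of m862 to m865, 151581 in that of m866, and 107633 to 174374 in contralateral legs, and 3 of 7 were called lower (5 without the HRS leg of m866). Against PBS-only mice 1 of 7 was called lower with all libraries and 5 without the HRS leg of m866. The share of normalized counts from mitochondrial genes split the libraries in the same way, with 3.41% to 6.29% in the HRS legs of m862 to m865, 11.1% in that of m866 and 9.69% to 11.2% in contralateral legs. The 2 HRS-MBP libraries had similar leukocyte sums (944.7 and 1062) and collagen sums of 15358 and 6355. Among other lists, 3 of 3 erythroid markers were lower than in contralateral legs at an adjusted p under 0.05 (limma, median log2 fold change -0.69), and 0 were called. Against PBS-only mice 1 of 3 was called lower, and 3 without the HRS leg of m866. Of 7 pericyte and smooth muscle markers, 2 were higher and 3 lower than in contralateral legs at that threshold, with 0 called. Of 6 Schwann cell markers 1 was called higher. How far cell make-up bears on the collagen values was not tested.

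**Figure D5:**
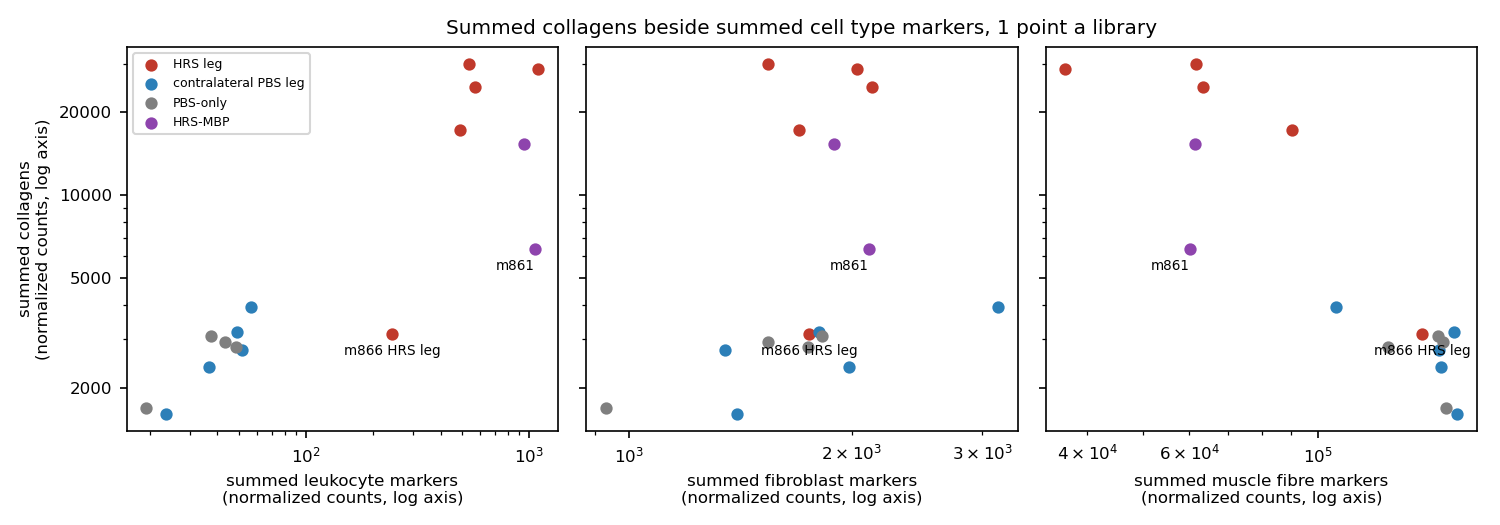
Summed normalized counts of the 44 collagens against summed leukocyte, fibroblast and muscle fibre markers in each of the 16 libraries (log axes). The HRS leg of m866 has a collagen sum of 3122 at a leukocyte sum of 242.5, and the HRS-MBP library of m861 has 6355 at 1062.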

How the data were processed

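Bulk RNA from mouse hamstring was sequenced after poly(A) selection with a directional kit on 3 Illumina platforms, which the labels do not assign to samples. The authors deposited normalized counts for 26382 genes, which hold no negative value and are not on a log scale, so they were treated as a signal. The submitters' processing notes name STAR 2.7.8a and limma, and the scaling step is not given in the sources used here. Those notes list mm39, while the deposited positions equal GRCm38 (GENCODE M21) for all 44 members. The most frequent nonzero value of a library served as the step worth 1 read and gave its implied depth. Only 75.1% to 77.5% of low values fell on whole steps (within 0.02 of a step), which is too few to recover reads, and the main test was therefore not a count model.

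Groups were taken from the sample titles. Genes averaging 0.5 or more over the 16 libraries (16414) entered 1 fit of 4 groups on the log2 scale after adding 0.5, using limma 3.58.1 under R 4.3.3 with moderated variances that follow the mean, and p-values were adjusted by Benjamini-Hochberg over these genes. The steps were tested on simulated data. A gene was called at an adjusted p under 0.05 and an absolute log2 fold change above 1. Intervals are limma's at 95%. Ratios between chains were compared by exact permutation tests. Levels per kb divide by the longest coding transcript in GENCODE M21.

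Named genes were the type I, III, IV (alpha 1 and 2), V, VI, XII, XIV, XV and XVIII chains of textbooks and the called members with the largest changes in each class. *Col26a1* and others outside this rule were named after their values were seen. The members and the lists were chosen with earlier results of these data known.

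Both legs of m862 to m866 come from the same animal, which pairs them. The deviations of paired legs from the group means correlated at 0.12, 0.16, 0.097, -0.026 and -0.37 in m862 to m866, and at -0.0068 on average between different mice. The fit without the pairing was the main one and the replicate block an alternative. Further alternatives were a smaller and a larger pseudocount, the filter, the scaling, the model and leaving out each library.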

Additional observations from a re-analysis of the deposited data

Results flagged for a closer look

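For each of the 39 tested collagens, the highest and the lowest library of each group of 4 or 5 were compared with their neighbours by Dixon's ratio, which chance alone exceeds in about 1 in 20 groups. Of 117 groups of values, 25 were set apart, and 17 of these were in the HRS leg of m866.

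In the HRS leg of m866 the value was far below the other 4 HRS legs for *Col1a1* (505.9 normalized counts), *Col1a2* (519.9), *Col3a1* (888.7) and *Col5a1* (73.9) among fibrillar chains. It was also far below for *Col4a1* (233.5) and *Col4a2* (180.6), for the FACIT chains *Col12a1* (3.8), *Col14a1* (30.6) and *Col16a1* (10.7), and for the type VI chains *Col6a2* (130.3), *Col6a3* (110.6), *Col6a5* (0.935) and *Col6a6* (8.01). *Col8a1* (7.54), *Col15a1* (57.5) and *Col23a1* (3.61) were far below as well. *Col9a1* (0.748) was far above the other HRS legs in this library.

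Among PBS-only legs, the left leg of m867 was far below the other 3 for *Col1a1* (182.0), *Col1a2* (200.5), *Col3a1* (332.3) and *Col14a1* (10), and the right leg of m868, the shallowest library, was far above them for *Col8a2* (2.43). Single values far from their group were *Col4a5* in the HRS leg of m864 (2.63, low), *Col11a1* in the contralateral leg of m866 (2.61, high) and *Col26a1* in the contralateral leg of m862 (0.192, low).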

How the results depend on the processing

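The 23 higher calls in HRS against contralateral legs stayed between 20 and 25 under all alternatives, and the 22 against PBS-only legs between 20 and 23. No called change of a named collagen changed sign in 1030 alternative values, and 74 of 1173 uncalled ones did. The replicate block ended the calls of *Col5a3*, *Col11a1* and *Col15a1* and no other named call in HRS against contralateral legs. It left the 4 ratio differences at 0.48 (*Col1a1*/*Col1a2*), 2.7 (*Col1a1*/*Col4a1*), 2.28 (*Col3a1*/*Col4a1*) and -1.62 (*Col6a1*/*Col1a1*), with an adjusted p of 0.1 by sign flips, which with 5 pairs cannot go below 0.0625.

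Counts of lower calls also moved. In HRS against contralateral legs they went from 0 to 2 at the smaller pseudocount, 4 with quantile normalization and 3 with limma-voom, and were 0 to 1 with 1 library left out (1 without the HRS leg of m866). In HRS against PBS-only legs they went from 0 to 1, 5 and 3 under the same settings and were 0 to 1 with 1 library left out. In HRS-MBP against HRS legs they were 0 to 3 with 1 library left out, 3 without the HRS leg of m866.

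HRS-MBP against PBS-only legs was the least stable comparison. Its 10 higher calls became 6 with no filter, 6 with median-of-ratios scaling, 6 without a mean trend, 16 with only these groups in the fit and 2 with the PBS-only legs averaged per mouse. With 1 library left out they ranged from 0 (without m860) to 11 (without m861), and were 4, 6, 6 and 5 without each PBS-only leg in turn (m867 left and right, m868 left and right). Where 1 HRS-MBP library remains, it is assumed to vary like the other groups. Its 2 lower calls became 4 at the smaller pseudocount, 0 at a pseudocount of 2 and 8 with quantile normalization, and were 1 to 2 with 1 library left out.

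With 1 library left out, the log2 differences of ratios between HRS and contralateral legs ranged from 0.43 to 0.59 for *Col1a1*/*Col1a2*, whose adjusted p then lay between 0.0254 and 0.0635. They ranged from -0.56 to -0.34 for *Col3a1*/*Col1a1* and from -0.14 to -0.08 for *Col6a1*/*Col6a2*, where the call was gained without the HRS leg and without the contralateral leg of m866, respectively. Leaving out both legs of m866, an alternative chosen after seeing the data, gave -0.48 and -0.16 for these (adjusted p = 0.0381 for both). In the shallowest library, the right leg of m868, 3 reads are worth 0.364 normalized counts, so lower values there rest on very few reads. With 2 PBS-only mice and 2 HRS-MBP mice the spread between animals is poorly known.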
